A study of Mus musculus with 4 samples.

Results

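Dendritic cell genes were examined in RNA-seq libraries of bone marrow-derived macrophages (BMDMs), as 10 genes chosen by symbol out of the 34745 genes counted. The genes were Flt3, Zbtb46, Batf3, Ccr7, Cd209a, Irf4, Siglech, Dpp4, Clec9a and Xcr1, and each symbol matched 1 gene. The libraries came from mice with a floxed G3bp1 gene (G3bp1 f/f, labelled WT) and from the same floxed mice crossed to Lyz2-Cre (G3bp1mac-/-, labelled KO), with 2 libraries per genotype. G3BP1 is the scaffold protein of stress granules, cytoplasmic condensates of RNA-binding proteins and untranslated mRNA. Both genotypes carry the floxed allele, and the Lyz2 promoter drives Cre in monocytes and granulocytes as well as in macrophages. No allergen or other stimulus is given for these cultures, and the age of the mice is not stated in the sources used here. The labels do not say whether replicates came from separate animals, so p-values measure the spread between these libraries only. The comparison asks whether transcripts that mark dendritic cells were present in the macrophages, and whether they differed with G3bp1 genotype.

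Dendritic cells are the main antigen-presenting cells that prime T cells. They arise in bone marrow from precursors that need the growth factor receptor FLT3, whereas macrophages depend on the receptor for macrophage colony-stimulating factor. Conventional type 1 dendritic cells require BATF3 and carry XCR1 and CLEC9A, type 2 cells rely on IRF4 and often carry CD209A in mice, and plasmacytoid cells carry Siglec-H. ZBTB46 marks the conventional lineage, and mature cells use CCR7 to migrate to lymph nodes. Several of these genes are not exclusive to dendritic cells. Irf4 is also used by B cells, plasma cells and macrophages activated by IL-4, and Dpp4 by T cells and stromal cells. In bulk RNA, fewer cells of a type and less RNA per cell cannot be told apart.

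Total gene counts were between 16724241 and 19747909 per library, and the limit set by a count of 0 was 0.152 to 0.188 CPM (counts scaled to a common TMM-adjusted library total), from counting error only. The libraries numbered 2 stood apart from those numbered 1 in both genotypes: the first principal component, with 57.4% of the variance, separated the numbers, and the second, with 34.3%, separated the genotypes. The targeted gene G3bp1 had 1691 and 2875 counts in WT replicates 1 and 2, and KO replicates 1 and 2 had 1307 and 2296. The genotypes overlapped in CPM, but KO was below WT within each replicate number, with log2 ratios of -0.57 and -0.63. Counts over the whole gene do not show whether its floxed exons were lost. The authors report efficient loss of G3BP1 from macrophages of the KO mice. Macrophage markers were high in every library, from 5.89 FPKM (fragments per kilobase, scaled to the library total) for Maf to 15140 FPKM for Lyz2 as means of the 4 libraries.

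The dendritic cell genes were low in all 4 libraries. On the scale of deposited FPKM, which corrects for gene length, the means over the 4 libraries were 1.48 for Irf4, 1.44 for Ccr7, 1.22 for Batf3, 0.452 for Cd209a, 0.186 for Zbtb46, 0.172 for Dpp4, 0.0711 for Flt3, 0.0442 for Clec9a, 0.00527 for Siglech and 0.00284 for Xcr1. Irf4, the highest member, had a mean FPKM above 52.8% of the 17991 genes with any count, and Xcr1, the lowest, was above 1.5%. Of neighbours in this order, 2 pairs were set apart in every library. Batf3 had at least 0.936 FPKM where Cd209a had at most 0.648, and Dpp4 had at least 0.0847 FPKM where Flt3 had at most 0.0765. The other neighbours overlapped in range, so Irf4, Ccr7 and Batf3 could not be ordered among themselves, nor could Cd209a, Zbtb46 and Dpp4. Clec9a overlapped both Flt3 above it and Siglech below it, and Siglech overlapped Xcr1. Lyz2, Cd68 and the other macrophage markers lay above every member in each library.

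**Figure D1:**
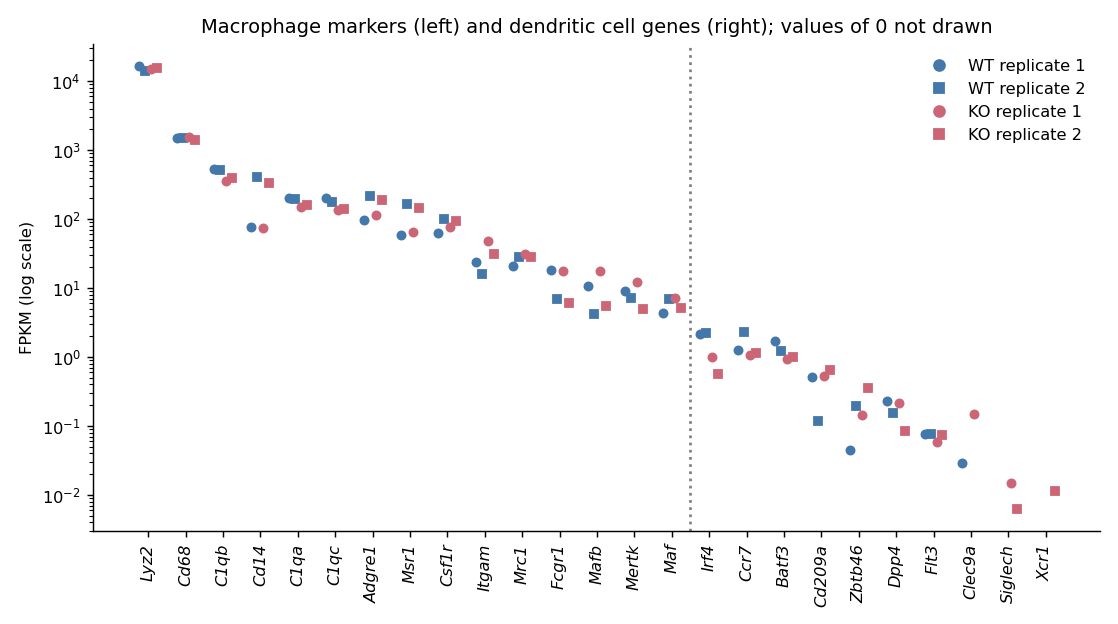
Deposited FPKM on a log axis of 15 macrophage marker symbols (left of the dotted line) and the 10 dendritic cell genes (right), with 1 point per library and values of 0 not drawn; for Itgam, a symbol of 2 genes, the higher gene is shown. All markers on the left sit above the highest dendritic cell gene, Irf4 with a mean of 1.48 FPKM.

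Of the 10 genes, 6 had enough counts to be tested for a difference between KO and WT (Irf4, Ccr7, Batf3, Cd209a, Zbtb46 and Dpp4), and Flt3, Clec9a, Siglech and Xcr1 did not. No tested member was called by edgeR's quasi-likelihood test with genotype as the only term (Benjamini-Hochberg adjusted p under 0.05 with more than 1 in log2 fold change either way), beside a background of 0% of the 12418 genes tested. The DESeq2 Wald test called 1 member, Irf4, and 1.46% of all genes tested. The edgeR exact test, which called 174 genes in all, and limma called 0 members. At an unadjusted p under 0.05 there was 1 member, Irf4, lower in KO, where 6.63% of all genes tested passed in either direction and 1.99% passed as lower. Both KO libraries lay below both WT libraries for 3 of the 6 tested members (Irf4, Ccr7 and Batf3), against 16.9% of all genes tested, and both KO libraries lay above for 0 of them, against 19.9%. The median log2 fold change of the 6 was -0.64, beside 0.04 over all genes tested, and without WT replicate 1 it was -0.37. These 6 were the members with enough counts, and the median does not describe the 4 that were left out.

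**Figure D2:**
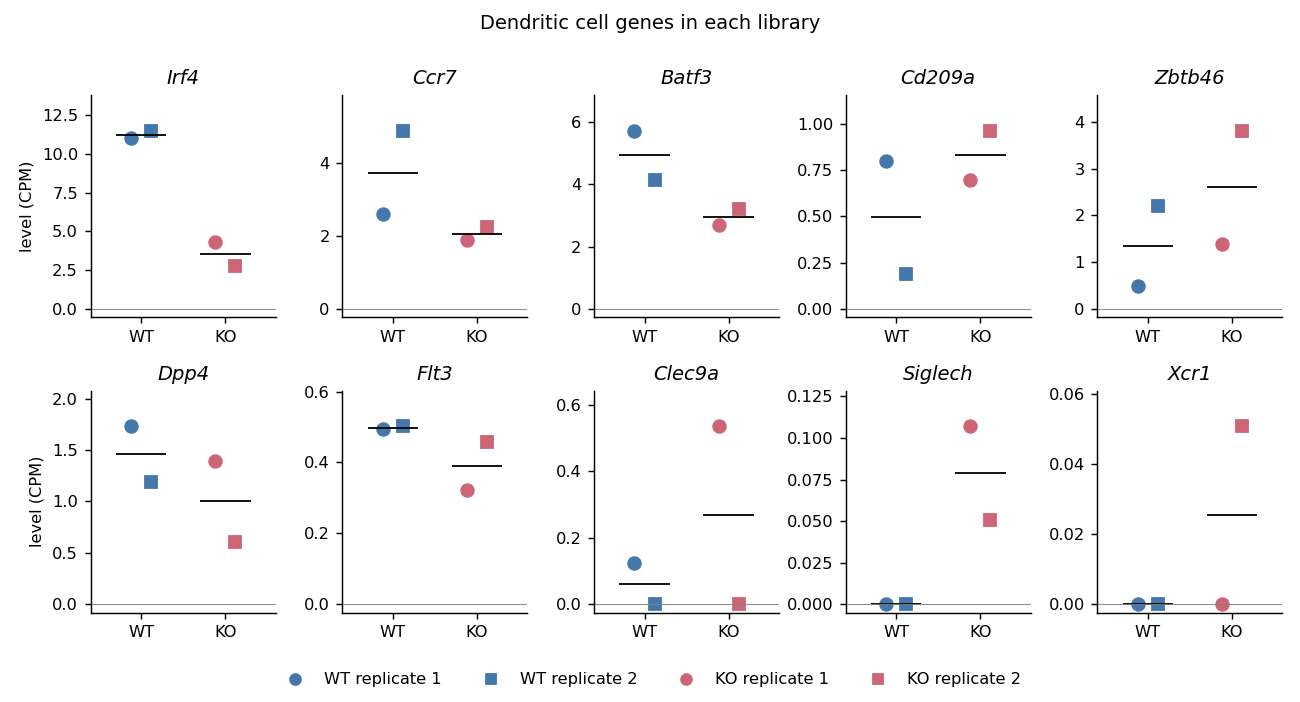
Level of each of the 10 dendritic cell genes in CPM, 1 panel per gene with its own axis, for WT (blue) and KO (red), with circles for replicate 1, squares for replicate 2 and a line at the mean of each genotype. Irf4 was at 11 and 11.5 CPM in WT and at 4.29 and 2.74 CPM in KO, while Siglech and Xcr1 stayed at or below 0.107 CPM in every library.

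Irf4 (ENSMUSG00000021356, chr13:30749226-30766927 on GRCm38, plus strand, 9 exons) encodes a transcription factor needed for type 2 dendritic cells and for the migration of dendritic cells. It had 178 and 183 counts in WT replicates 1 and 2, and KO replicates 1 and 2 had 80 and 54. Both KO libraries were low and the genotypes did not overlap. Mean levels were 11.2 ± 0.362 CPM for WT against 3.52 ± 1.09 CPM for KO (± SD, n = 2 each). KO differed from WT by -1.67 on the log2 scale (SE 0.34, 95% interval -2.53 to -0.81), with WT 3.19-fold above KO. In edgeR's quasi-likelihood test the unadjusted p was 0.00382, and after adjustment over all genes Irf4 did not pass (adjusted p = 0.289). With the DESeq2 Wald test, Irf4 was called lower in KO, with a log2 fold change of -1.72 and an adjusted p of 0.00756. The edgeR exact test gave an adjusted p of 0.0738, and over all 14 alternatives the adjusted p of Irf4 was between 2.69e-07, where the replicate number was a term of the edgeR model and Irf4 was called, and 1. Leaving out each library in turn kept Irf4 lower in KO, with log2 fold changes from -2.03 to -1.39.

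As Irf4 was the member with the largest difference, its promoter is shown, from RefSeq on GRCm38.p6 at chr13:30748983-30749232 on the plus strand. These are the 250 bases before the RefSeq start, and the last of them lie within the gene as the file places it. Capitals mark matches to TATAAA and GGGCGG on either strand.
Irf4 promoter: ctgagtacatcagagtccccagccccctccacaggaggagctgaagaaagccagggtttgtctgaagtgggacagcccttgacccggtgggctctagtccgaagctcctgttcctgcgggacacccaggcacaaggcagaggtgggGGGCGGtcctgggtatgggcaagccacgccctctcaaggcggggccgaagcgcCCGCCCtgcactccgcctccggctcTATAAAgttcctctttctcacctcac
One match to TATAAA began 26 bases before the start, and matches to GGGCGG began 104 bases before it on the plus strand and 51 bases before it on the minus strand. Of 32851 mouse promoters of this length in the table, 12.4% held TATAAA and 32.7% held GGGCGG. Neither TGANTCA, the letters bound by AP-1 and by BATF factors with it, nor GAAANNGAA, which is close to the letters bound by interferon regulatory factors, was found in this window, where 6.75% and 7.13% of all promoters held them. A match is a description of letters only.

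Genes of other cell types that use Irf4 were read beside it. Of the 13 B cell genes, 7 were tested and 6 of these (85.7%) had both KO libraries below both WT libraries, where 16.9% of all genes tested did, and the median log2 fold change was -0.73. No B cell gene was called in that edgeR test, and 3 had an unadjusted p under 0.05 as lower in KO, where 1.99% of all genes did. Cd22 went the other way, with a log2 fold change of 0.09. Their summed level was 254 and 274 CPM in WT and 244 and 218 CPM in KO, most of it from Blnk and Cd22, whose products are signalling proteins of B cells found in some myeloid cells too. Ighm, the IgM heavy chain, had counts of 352 and 390 in WT against 220 and 316 in KO, whereas the defining B cell factor Pax5 had between 5 and 6 counts in each library. Of the 12 mast cell and basophil genes, 8 were tested, 0 were called, 6 (75%) had both KO libraries below both WT libraries, beside the same 16.9%, and the median log2 fold change was -1.31. Hdc, which encodes the enzyme that makes histamine, was at 0.29. Their summed level was 118 and 107 CPM in WT and 46.6 and 55.9 CPM in KO, and the most abundant by FPKM were the mast cell proteases Tpsb2 at 24.1 FPKM and Cma1 at 17.9 FPKM. The part of either cell type in the Irf4 difference was not tested.

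Batf3 (ENSMUSG00000026630, chr1:191097847-191108945, plus strand, 3 exons) encodes the partner of AP-1 factors that type 1 dendritic cells require. It had 93 and 66 counts in WT replicates 1 and 2, and KO replicates 1 and 2 had 50 and 63. In CPM the 2 KO libraries, at 2.68 and 3.2, lay below the 2 WT libraries, at 5.73 and 4.14. On the log2 scale, KO minus WT was -0.75 (SE 0.34, 95% interval -1.62 to 0.13, adjusted p = 0.841 in the same edgeR test), so the difference was within the error of the fit. The related gene Batf was higher in abundance, with counts of 302 and 1723 in WT against 246 and 1544 in KO, and Batf2 was lower, with 15 to 35 counts per library. Batf differed far more between the numbers of the libraries than between genotypes, and Batf3 did not share this. Irf8, the interferon regulatory factor that type 1 cells need alongside BATF3, had counts of 1466 and 922 in WT against 2210 and 1209 in KO, with a log2 fold change of 0.28 (SE 0.41).

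Ccr7 (ENSMUSG00000037944, chr11:99144196-99155077, minus strand, 3 exons) encodes the receptor for the lymph node chemokines CCL19 and CCL21. It had 42 and 78 counts in WT replicates 1 and 2, and KO replicates 1 and 2 had 35 and 44. WT replicate 2 was the high library at 4.89 CPM, and the others lay between 1.88 and 2.59 CPM, with both KO libraries below both WT libraries. Ccr7 differed by a log2 fold change of -0.86 (SE 0.44, 95% interval -1.97 to 0.25, adjusted p = 0.848), and it was -0.36 at its smallest when a single library was left out. Of the ligands, Ccl19 and every gene of the symbols Ccl21a, Ccl21b and Ccl21c had 0 counts in all libraries.

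Zbtb46 (ENSMUSG00000027583, chr2:181387762-181459426, minus strand, 5 exons) encodes a zinc finger factor that marks committed conventional dendritic cells and is also found in endothelial cells. It had 8 and 35 counts in WT replicates 1 and 2, and KO replicates 1 and 2 had 26 and 75. The libraries numbered 2 were higher in both genotypes, 4.25-fold in WT and 2.7-fold in KO, and the genotypes overlapped. Between genotypes it differed by 0.95 in log2 (SE 0.83, 95% interval -1.16 to 3.07, adjusted p = 0.951), a value that was 0.05 without KO replicate 2 and 2.35 without WT replicate 2. Zbtb46 was the only tested member with both libraries numbered 2 above both numbered 1, a pattern of 25.2% of all genes tested. Of the 9 endothelial genes, 3 were tested, 1 of them with both KO libraries above both WT libraries, where 19.9% of all genes tested were, and their median log2 fold change was 0.06. Vwf and Kdr, the most abundant of them, were at 1.69 and 0.419 FPKM.

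Dpp4 (ENSMUSG00000035000, chr2:62330073-62412231, minus strand, 26 exons) encodes CD26, a surface peptidase of type 1 dendritic cells, T cells and fibroblasts. It had 28 and 19 counts in WT replicates 1 and 2, and KO replicates 1 and 2 had 26 and 12. The libraries numbered 2 were the lower ones in each genotype, and the genotypes overlapped. Dpp4 differed by a log2 fold change of -0.54 (SE 0.56, 95% interval -1.97 to 0.89, adjusted p = 0.961), which became -0.07 when KO replicate 2 was left out and -1.25 when KO replicate 1 was. An antisense gene, Gm13561, overlaps Dpp4, and as strand use in the counting is not stated, reads of the 2 genes cannot be told apart. Of 12 tested stromal genes, 0 were called and 10 (83.3%) had both KO libraries above both WT libraries, where 19.9% of all genes tested did. The most abundant were Dcn at 40.5 FPKM and Acta2 at 9.32 FPKM, which encode decorin and smooth muscle actin. The median log2 fold change of the list was 2.12, with summed levels of 90.6 and 102 CPM in WT and 382 and 351 CPM in KO. The part of stromal cells in the Dpp4 values was not tested.

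Cd209a (ENSMUSG00000031494, chr8:3743395-3748984, minus strand, 7 exons) encodes a C-type lectin of type 2 and monocyte-derived dendritic cells. It had 13 and 3 counts in WT replicates 1 and 2, and KO replicates 1 and 2 had 13 and 19. WT replicate 2 was the low library and the other 3 were close to each other, so the genotypes overlapped. The fitted log2 difference was 0.74 (SE 0.75, 95% interval -1.17 to 2.65, adjusted p = 0.959), and leaving out WT replicate 2 gave 0.02, where leaving out WT replicate 1 gave 2.10. Of the neighbouring genes of the family, Cd209b had between 1 and 6 counts per library and Cd209c, Cd209d, Cd209e, Cd209f and Cd209g had 0 counts in every library. These genes are similar in sequence, so the assignment of single reads among them is uncertain.

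**Figure D3:**
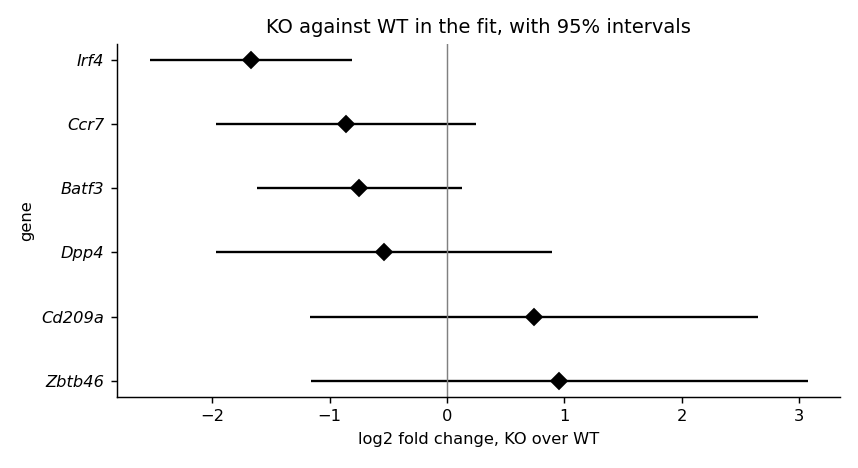
Log2 fold change of KO over WT for the 6 tested dendritic cell genes, with diamonds for the edgeR estimate and lines for its 95% confidence interval. The interval of Irf4, from -2.53 to -0.81, lies below 0, and those of the other 5 genes include 0.

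The 4 genes that were not tested are among those most restricted to dendritic cells and their precursors. Flt3 (ENSMUSG00000042817, chr5:147330741-147400489, minus strand, 24 exons), the receptor that precursors need, had 8 counts in each WT library and 6 and 9 counts in the KO libraries. Its level of 0.497 ± 0.0063 CPM in WT and 0.389 ± 0.0956 CPM in KO (mean ± SD, n = 2 each) was above the level that a count of 0 allows, and an antisense gene, Gm26597, overlaps it. Clec9a (ENSMUSG00000046080, chr6:129408862-129424763, plus strand, 6 exons), a receptor of type 1 cells for dead cell debris, had counts of 2 and 0 in WT against 10 and 0 in KO. All of its KO counts came from replicate 1, and the gene overlaps Clec1b and RP23-250E1.9 on the same strand, so its counts are uncertain.

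Siglech (ENSMUSG00000051504, chr7:55768178-55778925, plus strand, 6 exons), a lectin of plasmacytoid cells, had 0 counts in both WT libraries and 2 and 1 in KO replicates 1 and 2. Xcr1 (ENSMUSG00000060509, chr9:123852315-123862029, minus strand, 2 exons), the chemokine receptor of type 1 cells, had 1 count in KO replicate 2 and 0 in the other 3 libraries. Both genes were at or under the level that a count of 0 allows in every library, so no fold is given, and no difference between genotypes was detectable at this depth. Xcl1, which encodes the XCR1 ligand, had 3 counts in KO replicate 2 and 0 elsewhere.

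Other dendritic cell genes were read from 6 lists by role, with 101 genes in the file, 88 with any count and 73 tested. No gene of these lists was called by edgeR's quasi-likelihood test with genotype as the only term. At an unadjusted p under 0.05, 1 gene was higher in KO (Cox6a2) and 5 were lower (Ltb, Clec4a2, Ly6d, Ptprcap and Bst2), where 6.63% of all genes tested passed in either direction and 1.99% as lower. The DESeq2 Wald test called 1 of the 73 genes, Clec4a2, an inhibitory lectin receptor, where it called 1.46% of all genes tested. The edgeR exact test, with 174 calls over all genes, and limma called 0 of the list. Both KO libraries were below both WT libraries for 12 genes (16.4%, beside 16.9% of all genes) and above for 6 (8.22%, beside 19.9%). Genes split by library number cannot also be split by genotype. In 36 of the 73 (49.3%, beside 25.2% of all genes tested) both libraries numbered 2 lay above both numbered 1. The median log2 fold change was -0.15, with 25 genes above 0 and 48 below. That median turned to 0.27 without WT replicate 2 and to 0.02 without KO replicate 1. It was 0.02 with limma on log2(FPKM + 1) and 0.04 with limma on log2(FPKM + 0.1).

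Among the 15 tested transcription factors of dendritic cells, the median log2 fold change was -0.00 and 0 had separate genotypes. In 8 of them both libraries numbered 2 lay above both numbered 1, and in 5 they lay below. Genes split in this way cannot have separate genotypes, so the 0 does not measure a genotype difference. Id2, which type 1 cells need, was the most abundant at 326 FPKM with counts of 5654 and 9681 in WT against 4514 and 9508 in KO. Spi1, which encodes the myeloid factor PU.1, followed at 127 FPKM. Of the type 1 list, 8 genes were tested with a median of 0.01. Cd24a and Itgax led it at 96.3 and 68.6 FPKM, both of them surface proteins that macrophages in culture also carry. Cd24a differed by 0.25 (SE 0.22) and Itgax by 0.33 (SE 0.27) in log2.

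The type 2 list had the lowest median of the 6, -0.61 over 10 tested genes, with 6 of them (60%) below WT in both KO libraries, beside 16.9% of all genes, and 2 with an unadjusted p under 0.05 as lower, beside 1.99%. Clec4a2 had counts of 755 and 754 in WT against 332 and 473 in KO, with a log2 fold change of -1.17 (SE 0.25, adjusted p = 0.298). Ltb, which encodes lymphotoxin beta and is also made by lymphocytes, had counts of 41 and 37 in WT against 23 and 19 in KO. Clec4a2 and Ltb were chosen after their values were seen. The most abundant genes of this list, the inhibitory receptor Sirpa at 65.4 FPKM and the lectin receptor Clec12a at 53.6 FPKM, had log2 fold changes of 0.15 (SE 0.21) and -0.54 (SE 0.30).

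Of the plasmacytoid list, 11 genes were tested with a median of -0.06 and values from -1.87 to 0.92. Its most abundant gene, Bst2, encodes the antiviral protein tetherin, which many interferon-exposed cells make. It had counts of 2111 and 1895 in WT against 1365 and 1737 in KO (log2 fold change -0.62, SE 0.23, adjusted p = 0.701). Cox6a2, a subunit of cytochrome oxidase known mainly from muscle, had counts of 62 and 71 in WT against 118 and 184 in KO (log2 fold change 0.92, SE 0.34, adjusted p = 0.682). Ly6d and Ptprcap, named after their values were seen and also known from B or T cells, had log2 fold changes of -1.76 and -1.87 and adjusted p-values of 0.312 and 0.353. Growth factor and signalling genes had a median of -0.12 over 10 tested, led by the receptor chains Csf2rb at 112 FPKM and Csf2ra at 86 FPKM, with log2 fold changes of -0.15 (SE 0.30) and 0.06 (SE 0.22).

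**Figure D4:**
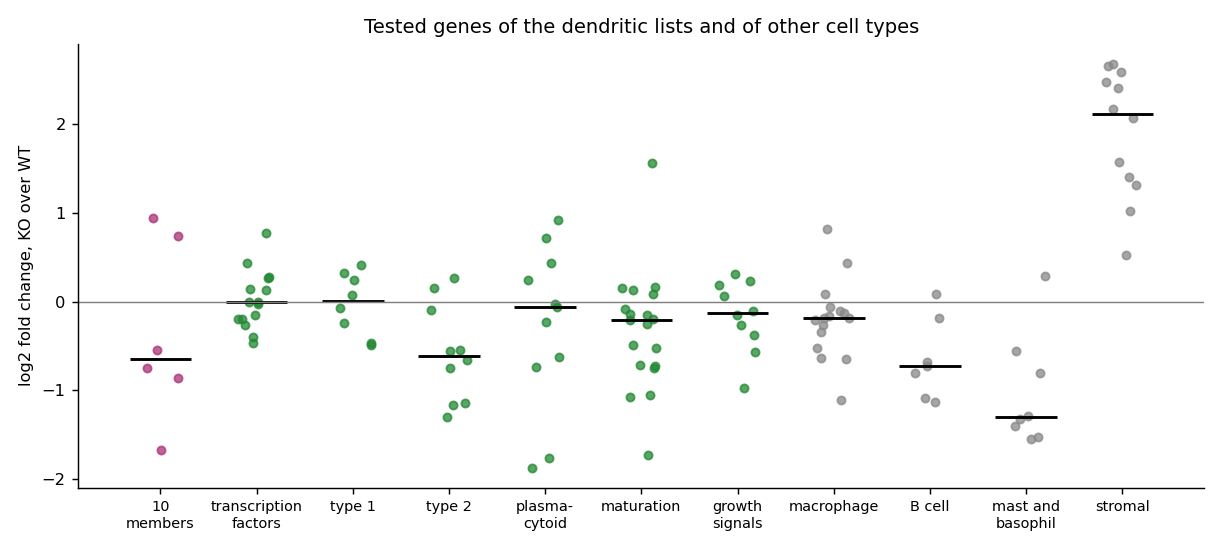
Log2 fold change of KO over WT for each tested gene (points, spread sideways for visibility) of the 10 members, the 6 other dendritic lists (green) and 4 lists of other cell types (grey), with a line at each median. The stromal list lies above 0 with a median of 2.12 and the mast cell and basophil list has a median of -1.31, while the dendritic lists have medians between -0.64 and 0.01.

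Maturation genes differed by the number of the library. Of the 19 tested, 17 (89.5%) had both libraries numbered 2 above both numbered 1, against 25.2% of all genes tested, and the median log2 ratio of number 2 to number 1 was 2.07 in WT and 1.15 in KO. Cd83, a surface marker of mature cells and the most abundant of the list at 163 FPKM, had 1431 and 10579 counts in WT replicates 1 and 2, and KO replicates 1 and 2 had 1516 and 11816. Cd274, which encodes PD-L1, had counts of 2089 and 7436 in WT against 2447 and 5735 in KO. Cd40, the costimulatory receptor, chosen after its values were seen, had counts of 32 and 2038 in WT against 44 and 1511 in KO. Between genotypes the median log2 fold change of the list was -0.21. In both KO libraries 1 gene lay above and 1 below both WT libraries (5.26% each, beside 19.9% and 16.9% of all genes tested). The 17 genes split by library number could not also be split by genotype, so these shares do not measure a genotype difference.

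Of the 6 tested members, Zbtb46 alone had both libraries numbered 2 above both numbered 1. Ccr7, which rises with maturation in dendritic cells, was 1.88-fold higher in replicate 2 than in replicate 1 in WT and 1.19-fold in KO. Cd40 and Cd83 differed by far more, but not every maturation gene did. Cd86 was 1.22-fold higher in WT and 1.17-fold in KO, and Cd200 was 1.53-fold and 1.44-fold higher. Irf4 was nearly level between the WT libraries (1.05-fold) and lower in KO replicate 2 than in KO replicate 1 (0.641-fold). Zbtb46, at 4.25-fold and 2.7-fold, was the tested member furthest toward the libraries numbered 2. What the replicate number stands for is not given in the labels.

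**Figure D5:**
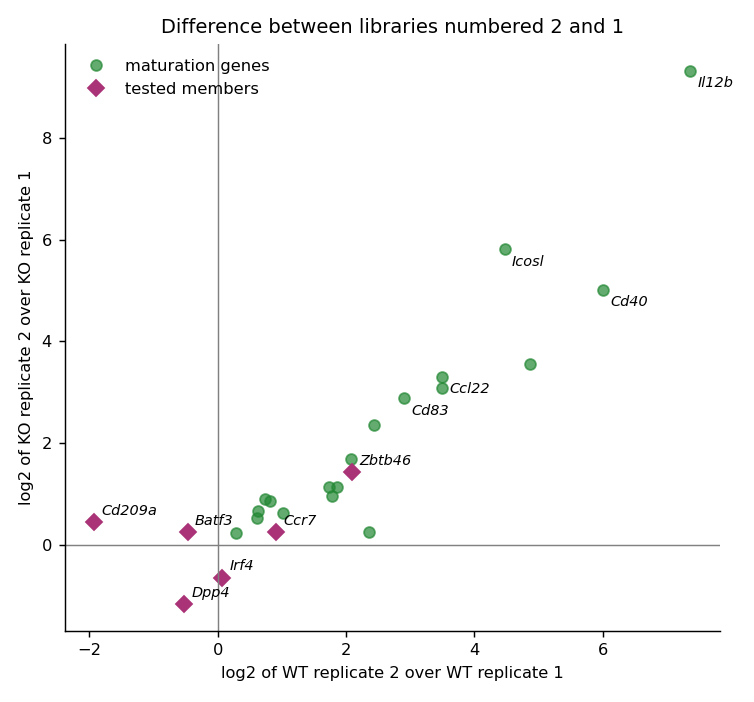
Log2 ratio of the library numbered 2 over the library numbered 1 in WT (horizontal) and KO (vertical), from CPM with 0.5 counts added, for 19 tested maturation genes (green circles) and 6 tested dendritic cell genes (diamonds). All maturation genes lie above 0 in both, with medians of 2.07 and 1.15, and of the members Zbtb46 lies furthest to the upper right, while Dpp4 lies below 0 in both.

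Genes of the remaining cell types were read as values beside the members. The summed level of the 10 members was 22.9 and 24.6 CPM in WT and 13.3 and 14.1 CPM in KO, to which Irf4 contributed the most in WT. The macrophage list was at 28200 and 26764 CPM in WT and 22389 and 26318 CPM in KO, with a median log2 fold change of -0.18. Of its 16 genes, 4 (25%, beside 16.9% of all genes tested) were lower in both KO libraries and 1 (6.25%, beside 19.9%) was higher. The higher one was 1 of 2 overlapping genes of the symbol Itgam, at 0.82 in log2, and the other was at -1.11. T and NK cell genes had 3 of 13 tested (median -0.53), 1 of them (33.3%, beside 16.9%) below WT in both KO libraries, with summed levels between 3.65 and 6.59 CPM, Cd2 and Trbc2 as the most abundant genes at 0.554 and 0.447 FPKM, and the CD3 chain genes at low counts: 0 to 1 per library for Cd3e, 2 to 7 for Cd3d and 5 to 8 for Cd3g. Neutrophil genes had a median log2 fold change of -0.71 over 6 tested, with S100a8 at 11.9 FPKM and Mmp8 at 5.12 FPKM the most abundant, and 3 of the 6 (50%, beside 16.9%) were below WT in both KO libraries. S100a9 and Retnlg, chosen after their values were seen, were lowest in KO, with S100a9 counts of 91 and 82 in WT against 2 and 1 in KO and Retnlg counts of 99 and 71 in WT against 3 and 9 in KO (adjusted p = 0.216 for each). Erythroid genes had a median of -1.79 over 3 tested, all 3 (100%, beside 16.9%) below WT in both KO libraries. The globin genes Hbb-bs at 2.1 FPKM and Hba-a1 at 1.01 FPKM were the most abundant of them. Progenitor genes had a median of 1.27 over 5 tested, led by Cd48 at 151 FPKM, which mature leukocytes also carry, and Sox4 at 0.76 FPKM. No gene of these lists was called by edgeR's quasi-likelihood test with genotype as the only term, and their part in the members' values was not tested.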

How the data were processed

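Total RNA of 4 BMDM libraries was sequenced. The authors filtered reads with Seqtk, aligned them with HISAT2 2.0.4, assembled and counted them with StringTie 1.3.3b, and deposited unnormalised whole-number counts per gene together with FPKM. The deposited FPKM carry the library total only: over 10564 genes the implied length differed between libraries by at most 0.004%. The submitters' processing notes name mm39, yet 27686 of 34267 gene IDs shared with GENCODE M21 had identical positions on GRCm38. Positions are therefore given as the file has them and are named as that build. Of the members, Irf4 and Cd209a did not have identical positions. Whether strand was used in counting is not given in the sources used here.

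The tests used edgeR 4.0.16 under R 4.3.3: filterByExpr (minimum count 10, minimum total 15), TMM, genotype as the only term, glmQLFit and glmQLFTest, two-sided, Benjamini-Hochberg over all 12418 genes kept. Calls needed an adjusted p under 0.05 together with a log2 fold change beyond 1 in either direction. Intervals (95%) were derived from the quasi-likelihood F statistic. CPM use TMM-scaled totals. TMM factors were 0.955 and 0.942 in WT and 1.12 and 0.997 in KO. No library was a copy of another (chi-square per degree of freedom 22.7 to 125), and none was left out. Floors are 3 counts, per library, and cover counting error only, as reads carried no molecular identifiers. The code was tested on simulated data.

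The members, the gene lists and the tests were chosen with earlier results of these data known. All 10 members were to be named with their counts, with the 2 most abundant genes of each other dendritic list and of each other cell type, up to 2 called genes per direction, family neighbours and G3bp1. Any other gene (Clec4a2, Ltb, Ly6d, Ptprcap, Cd40, Cd86, Cd200, Ccl19, the Ccl21 genes, Ccl22, Fscn1, Xcl1, Cd22, Hdc, S100a9, Retnlg, Pax5, Cd3d, Cd3e, Cd3g, Maf, Itgam) was named after its values were seen. One gene of the lists, Septin3, was matched under neither of its symbols. Lists covered dendritic cells by role (transcription factors, type 1, type 2, plasmacytoid, maturation, growth signals), macrophages, B cells, T and NK cells, neutrophils, mast cells and basophils, progenitors, stromal, endothelial and erythroid cells. Alternatives were no filter, DESeq2 size factors, a minimum mean CPM of 1, a replicate term, a gene length correction (loess, span 0.5), both together, each library left out, DESeq2 1.42.0, the edgeR exact test, limma 3.58.1 on log2(FPKM + 1) and log2(FPKM + 0.1) where 2 or more libraries reached 0.1 FPKM, and no minimum fold change.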

Additional observations from a re-analysis of the deposited data

How the results depend on the processing

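No tested member changed direction under any alternative run, with 14 for each member except Cd209a, which had 13 because the mean CPM filter removed it. With genotype as the only term, the DESeq2 Wald test called 1 member (Irf4), 1 other dendritic gene and 181 genes in all, the edgeR exact test called 174 genes and no dendritic gene, and limma on log2(FPKM + 0.1) called 2 genes. Leaving out each library gave 0 to 1 genes called, the 1 arising without WT replicate 1 and without WT replicate 2. In these fits the lone library of a genotype is assumed to vary like the others. The log2 fold change with each library left out was -1.25 to -0.36 for Ccr7, -0.99 to -0.49 for Batf3, 0.05 to 2.35 for Zbtb46, 0.02 to 2.10 for Cd209a and -1.25 to -0.07 for Dpp4. The median of the tested members (-0.64) was -0.68 to -0.37 with a library left out, -0.19 with limma on log2(FPKM + 1) and -0.40 with limma on log2(FPKM + 0.1), scales on which low genes change less.

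With the replicate number as a block, 1 of the 6 tested members was called (Irf4, log2 fold change -1.70, adjusted p = 2.69e-07). So were 5 of the 73 tested other dendritic genes, beside 664 of all 12418 genes tested. The 5 were Clec4a2, Ly6d, Ptprcap and Ccl22, lower in KO, and Fscn1, higher. With the replicate block and gene length correction together, Irf4 (-1.79, adjusted p = 0.00514), 5 other dendritic genes and 368 genes in all were called. In that fit Ptprcap was not called, and Cox6a2, higher in KO (log2 fold change 1.35), took its place beside Clec4a2, Ly6d, Ccl22 and Fscn1. Libraries that share a number deviated together from the means of their genotypes (r = 0.71 across genes), but with only 2 numbers the pairing is not settled, and the cause of the higher counts of calls was not tested. Siglech and Xcr1 were at or under the count floor in every library.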
